A study of Mus musculus with 8 samples.

Results

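The genes described here are the mouse transporters that carry amino acids, sugars and lactate into and out of cells. They were taken as all genes whose symbol in the platform's probe-to-gene table begins with Slc1a, Slc2a, Slc3a, Slc5a, Slc6a, Slc7a, Slc16a, Slc36a, Slc38a or Slc43a. These prefixes held 101 of the 18193 genes with a named probe set, measured by 191 probe sets. Each gene was read from the probe set with its highest mean level. A level is log2(signal + 16) throughout. Of the 101 genes, 58 passed a filter on dim probe sets (a mean level of at least 5.38 over the 8 arrays) and could be tested among 12520 genes. The other 43 had mean levels of 4.18 to 5.38 and were not tested, although 11 of them reached the threshold as the mean of some group. The untested genes included the glutamate carriers Slc1a1, Slc1a2 and Slc1a3, the liver glucose carrier Slc2a2, the gut glucose carrier Slc5a1 and 12 of the 20 transporters of the Slc6a family. The prefixes also took in 4 genes that are not transporters by their names, of which Slc2a4rg-ps and Slc7a6os were tested and Slc6a19os and Slc36a1os were not.

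CD8 T cells from the spleens of C57BL/6 mice were taken by positive bead selection. They spent 18 h in culture with bone marrow-derived dendritic cells, 10 of them to each dendritic cell. The 4 groups had 2 arrays each. They were p50 cRel DKO T cells, which lack 2 NF-kB subunits, with dendritic cells pulsed with N4, an ovalbumin peptide (called p50 cRel DKO N4), PKC theta KO T cells with pulsed dendritic cells (PKC theta KO N4), WT T cells with pulsed dendritic cells (WT N4), and WT T cells with dendritic cells that carried no peptide (WT non-pulsed). The dendritic cells were removed afterwards by CD11c selection. The labels state neither the T cell receptor of the mice, their age, nor the knockout alleles, and do not give the number of animals behind each group. No knockout T cells were cultured with non-pulsed dendritic cells.

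A T cell that meets its antigen prepares to divide within a day, and its demand for nutrients grows with it. Large neutral amino acids enter through Slc7a5 paired with the heavy chain Slc3a2, glutamine through Slc1a5 and Slc38 carriers, glucose through Slc2a1 and Slc2a3, and lactate crosses the membrane through Slc16a1 and Slc16a3. Amino acids that enter also feed the mTORC1 pathway, whose sensors at the lysosome include the transporter Slc38a9. PKC theta, encoded by Prkcq, relays T cell receptor signals to NF-kB, of which p50 (from Nfkb1) and c-Rel (from Rel) are subunits.

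Some features of the arrays bear on every value below. Median signals were 52.6 and 70.3 in the WT non-pulsed arrays and 33.6 to 52.5 in the 6 N4 arrays, so the array-wide median moved with the peptide. Counts under other scalings of the arrays are given at the end. The 2 arrays of a group correlated at Pearson r of 0.977 to 0.987 across genes. Rel was at 6.19 and 5.92 in p50 cRel DKO N4 arrays, against 9.82 and 9.53 in WT N4 arrays (limma adjusted p 0.000984). Prkcq was at 11.002 and 10.75 in PKC theta KO N4 arrays, against 11.74 and 11.35 in WT N4 arrays, a difference of -0.66 that did not pass the test (adjusted p 1.00). No probe set had Nfkb1 as its single symbol, so the RNA of p50 was not examined. A probe set outside a deleted part does not check a knockout, and the deleted parts were not known here. The Y-linked gene Eif2s3y was at 5.42 to 6.73 in the 4 knockout arrays and at 10.65 to 11.20 in the 4 WT arrays, so sex-linked RNA moved with genotype and its part in any knockout difference cannot be told apart. The X-linked Xist was at 5.18 and 6.65 in WT N4 arrays and at 6.05 and 11.84 in WT non-pulsed arrays. Sex-linked RNA thus also differed among the WT arrays, and its part in the WT differences was not tested.

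Markers of other cell types differed widely between pulsed and non-pulsed cultures. All 11 tested B cell markers, all 12 dendritic cell and macrophage markers and all 5 tested neutrophil markers fell in WT N4 relative to WT non-pulsed arrays (median differences -4.37, -4.00 and -5.29). Summed B cell marker signal was 737 to 4203 over the 6 N4 arrays and 38272 to 55872 in the WT non-pulsed arrays. The dendritic cell and macrophage markers summed to 6687 to 11140 over the N4 arrays and to 70034 to 87190 in WT non-pulsed arrays, and 7 neutrophil markers to 222 to 714 over the N4 arrays and to 20136 to 21843 in WT non-pulsed arrays. None of the markers was at 0, but Cxcr2 and Ltf, both neutrophil markers, lay below the dim-probe threshold in all 6 N4 arrays. CD8 T cell markers summed to 34963 to 48504 in the N4 arrays and to 31123 to 32835 in the WT non-pulsed arrays, and 3 of 7 rose in WT N4 (Cd2, Cd8a and Cd247). The WT non-pulsed arrays thus held far more RNA of these other cells, and its part in the transporter differences between WT N4 and WT non-pulsed arrays was not tested. In bulk RNA, fewer cells of a type and less RNA per cell cannot be told apart.

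**Figure D1:**
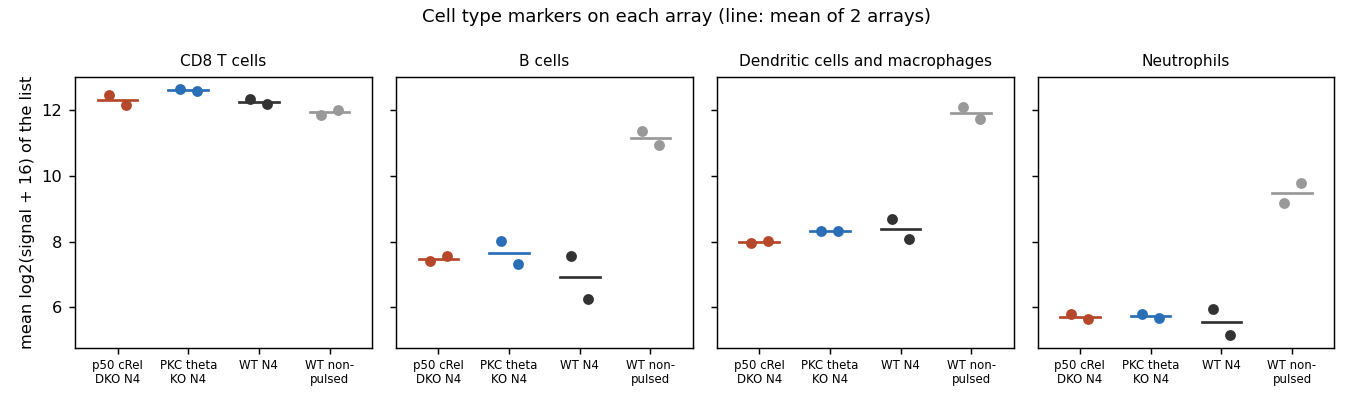
Mean level, as log2(signal + 16), of the marker genes of 4 cell types in each of the 8 arrays. In each group the left point is replicate 1, the right point replicate 2 and the line their mean, and the y ranges do not start at 0. The B cell, dendritic cell and macrophage, and neutrophil panels show the WT non-pulsed arrays well above all 6 N4 arrays, while the CD8 T cell panel does not.

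Promoter windows were available for 39 of the 58 tested genes, from RefSeq on GRCm38.p6, each 300 bases long with 250 before and 50 after the gene's start. They were searched on both strands for 4 motifs bound by factors known for nutrient and activation programmes: the E-box CACGTG (bound by Myc and related factors), the amino acid response element TGATGNAA (bound by Atf4 complexes), the AP-1 motif TGANTCA and the NF-kB motif. The 5 windows below are examples. Slc16a10 is shown because its level differed between the knockouts, and the others because they hold these motifs, in genes that rose and in genes that fell. They are not a sample of the genes that moved most. The windows of Slc6a19, Slc7a8, Slc2a6 and Slc5a3, which had large differences, held none of the 4 motifs. Motif matches are in capitals and the rest is in lower case.

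Slc16a1: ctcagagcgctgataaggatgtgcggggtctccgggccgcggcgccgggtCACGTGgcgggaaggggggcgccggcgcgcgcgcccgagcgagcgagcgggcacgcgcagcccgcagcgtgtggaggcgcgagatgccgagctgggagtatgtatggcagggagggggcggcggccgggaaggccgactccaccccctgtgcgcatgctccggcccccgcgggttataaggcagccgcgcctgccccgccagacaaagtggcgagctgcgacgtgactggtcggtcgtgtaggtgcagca
Slc16a10: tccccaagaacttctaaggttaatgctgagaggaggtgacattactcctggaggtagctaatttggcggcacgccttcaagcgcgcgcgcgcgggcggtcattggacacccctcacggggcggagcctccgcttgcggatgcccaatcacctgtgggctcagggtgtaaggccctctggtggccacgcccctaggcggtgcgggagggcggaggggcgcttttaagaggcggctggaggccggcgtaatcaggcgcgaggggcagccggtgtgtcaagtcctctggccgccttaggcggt
Slc1a4: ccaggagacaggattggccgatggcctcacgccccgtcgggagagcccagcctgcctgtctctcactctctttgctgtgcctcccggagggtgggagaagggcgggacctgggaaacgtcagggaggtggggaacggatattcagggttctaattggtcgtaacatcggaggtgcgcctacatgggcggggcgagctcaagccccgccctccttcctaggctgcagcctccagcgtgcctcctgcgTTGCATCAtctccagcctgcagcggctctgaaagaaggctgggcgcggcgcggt
Slc7a11: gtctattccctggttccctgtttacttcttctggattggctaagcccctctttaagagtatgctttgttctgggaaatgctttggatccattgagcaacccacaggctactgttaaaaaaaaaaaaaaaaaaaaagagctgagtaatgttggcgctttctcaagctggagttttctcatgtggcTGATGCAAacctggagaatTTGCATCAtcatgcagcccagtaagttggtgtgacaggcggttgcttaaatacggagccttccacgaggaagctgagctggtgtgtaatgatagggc
Slc43a2: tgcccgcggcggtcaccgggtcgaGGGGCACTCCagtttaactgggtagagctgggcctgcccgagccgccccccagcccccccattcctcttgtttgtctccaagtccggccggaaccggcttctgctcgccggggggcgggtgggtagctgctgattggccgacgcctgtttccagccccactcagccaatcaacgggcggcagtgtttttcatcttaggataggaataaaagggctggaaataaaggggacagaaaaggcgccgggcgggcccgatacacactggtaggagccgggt

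The Slc16a1 window (chr3:104638414-104638713, plus strand) holds 1 E-box, and the Slc16a10 window (chr10:40142205-40142504, minus strand) none of the 4 motifs. An amino acid response element appears once in the Slc1a4 window (chr11:20332664-20332963, minus strand) and in 2 copies in the Slc7a11 window (chr3:50443564-50443863, minus strand), although Slc1a4 rose and Slc7a11 fell. The Slc43a2 window shown (chr11:75531444-75531743, plus strand) holds 1 NF-kB motif. Another window of Slc43a2 (chr11:75531862-75532161, plus strand) holds none of the 4 motifs. Counted over the matched genes that rose, fell or did not pass, the E-box was found in 1 of 8, 1 of 13 and 2 of 18, and in 8.09% of all 27025 genes. The amino acid response element was found in 1 of 8, 2 of 13 and 1 of 18, against 4.51% of all genes. The AP-1 motif was in 1 of 8, 1 of 13 and 3 of 18 (8.97% of all genes), and the NF-kB motif in 0 of 8, 4 of 13 and 1 of 18 (9.55%). The 4 genes that fell and hold an NF-kB motif were Slc36a4, Slc43a2, Slc6a13 and Slc7a7. Of these, Slc6a13 passed the filter only through the non-pulsed group, so it had to fall. The Slc36a4 call was lost in 12 of 18 alternative settings. No conclusion is drawn from the 4 of 13. A gene was counted if any of its windows held the motif, and genes differed in their number of windows (32851 windows over the 27025 genes). Slc43a2, Slc6a13 and Slc7a7 had more than 1 window each, which gives more places for a match. The shares were not adjusted for this. A match is a string of letters, not a bound site, and no matches of different motifs overlapped.

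In WT cells, 28 of the 58 tested transporter genes differed between the N4 and the non-pulsed cultures: 11 rose and 17 fell. That is 48.3% of the genes tested (19.0% higher, 29.3% lower), beside 40.7% of all 12520 genes (17.2% higher, 23.5% lower) in the same limma fit with Benjamini-Hochberg adjustment at 0.05. The median difference over the 58 genes was -0.05 and over all genes -0.10, and the differences ran between -3.66 and 1.75. By size, 24 of the 58 differed by more than 1 on the log2 scale, which is 41.4%, beside 24.1% of all genes. These counts describe the genes that passed the filter. A gene that passed it through the one group in which it is high had to differ, which holds for Slc6a13 and Slc16a5 below. The genes that rose were carriers of leucine, arginine, neutral amino acids, lactate, aromatic amino acids, inositol and vitamins, together with Slc7a6os. Those that fell included 3 further light chains of Slc3a2, lysosomal carriers (Slc38a9, Slc36a1 and Slc2a6 among them), the urate carrier Slc2a9, the creatine carrier Slc6a8 and the GABA carrier Slc6a13. Of the 28 genes, 16 had 27 further probe sets past the filter, of which 26 differed in the same direction, 12 of them past the test, and 0 passed in the opposite one. The p-values measure only the spread between the arrays of a group, which may be technical.

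**Figure D2:**
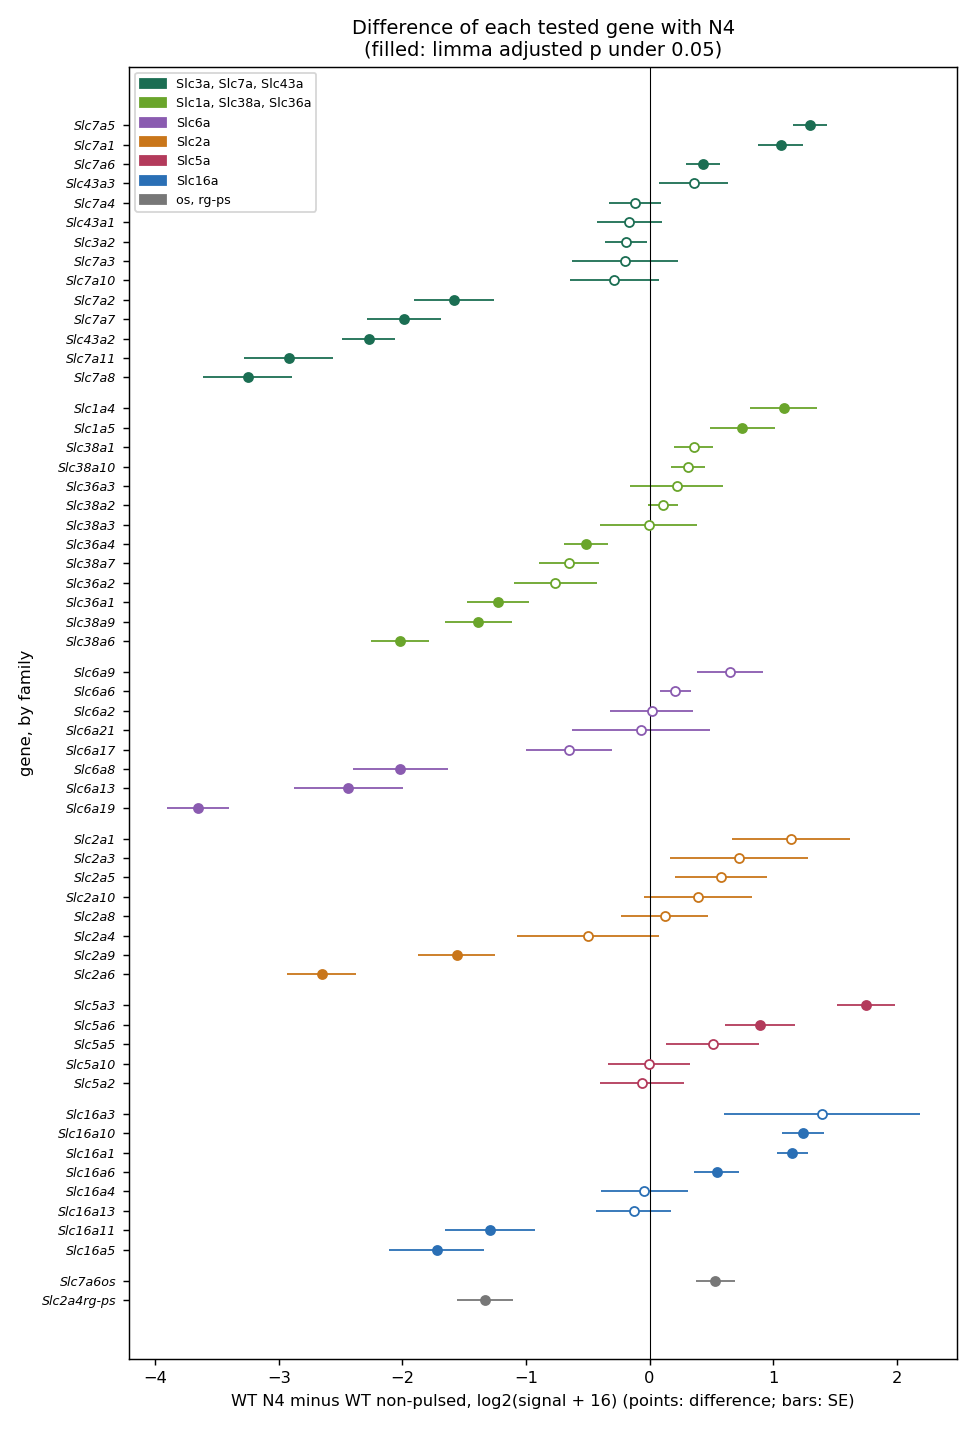
Difference in level between WT N4 and WT non-pulsed arrays (log2 scale, N4 minus non-pulsed) for the 58 tested genes, grouped by family, with bars for the SE, colour for the family and filled points for genes that passed the test. The 28 genes that passed run between -3.66 for Slc6a19 and 1.75 for Slc5a3, and every family of transporters except Slc5a holds genes that fell.

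Among the large neutral, cationic and exchange carriers (Slc3a, Slc7a and Slc43a), 14 of 20 genes were tested: 3 rose, 5 fell and 6 did not pass. Slc7a5, the light chain of the leucine carrier, was at 12.60 and 12.49 in p50 cRel DKO N4, 12.62 and 12.83 in PKC theta KO N4, 12.63 and 12.41 in WT N4 and 11.30 and 11.14 in WT non-pulsed arrays. All 6 N4 arrays lay more than 1 above both non-pulsed arrays. The WT difference was 1.30 (SE 0.14, adjusted p 0.000204), or 2.46-fold on the signal + 16 scale. Slc3a2, its heavy chain, was at 11.63 and 11.54 in p50 cRel DKO N4, 11.72 and 12.14 in PKC theta KO N4, 11.58 and 11.86 in WT N4 and 11.97 and 11.86 in WT non-pulsed arrays. Here the groups overlapped, and the WT difference was -0.19 (SE 0.17, adjusted p 0.414), so the light chain rose while its partner's level did not pass the test. Slc7a1, the cationic carrier that brings in arginine and lysine, was at 12.01 and 12.15 in p50 cRel DKO N4, 12.19 and 11.61 in PKC theta KO N4, 12.05 and 12.01 in WT N4 and 10.99 and 10.95 in WT non-pulsed arrays. It rose in WT N4 by 1.06 (SE 0.18, adjusted p 0.00213), with the N4 and non-pulsed arrays apart. Its 2 further probe sets past the filter, with mean levels of 11.09 and 5.75, had differences of 0.70 (adjusted p 0.0601) and -0.11 and did not pass. Slc7a6, another light chain of Slc3a2, which exchanges arginine for neutral amino acids, was at 10.74 and 10.61 in WT N4 and 10.31 and 10.18 in WT non-pulsed arrays and rose by 0.44 (SE 0.14, adjusted p 0.0346); its neighbour on chromosome 8, Slc7a6os, a gene that is no transporter, also rose, by 0.53 (SE 0.16, adjusted p 0.0264). Both calls rest on single arrays: Slc7a6 lost the test without any 1 of the 4 WT or the 2 p50 cRel DKO arrays (0.37 to 0.50, adjusted p 0.0582 to 0.175), and Slc7a6os without any 1 of the 4 WT arrays (adjusted p 0.0840 to 0.109).

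Slc7a8, Slc7a11 and Slc7a7, 3 further light chains of Slc3a2, fell, while the light chain Slc7a10 did not pass (difference -0.28, adjusted p 0.577). Slc7a8, a second neutral amino acid light chain, was at 5.04 and 5.33 in p50 cRel DKO N4, 5.69 and 6.36 in PKC theta KO N4, 5.67 and 5.91 in WT N4 and 9.42 and 8.67 in WT non-pulsed arrays. Every N4 array lay below both non-pulsed arrays by more than 2, and the WT difference was -3.25 (SE 0.36, adjusted p 0.000229), which is 9.54-fold lower. Slc7a11, the cystine and glutamate exchanger, was at 6.05 and 6.37 in p50 cRel DKO N4, 6.17 and 7.28 in PKC theta KO N4, 6.996 and 7.05 in WT N4 and 9.74 and 10.14 in WT non-pulsed arrays. It fell by 2.92 in WT N4 (SE 0.36, adjusted p 0.000379), again without overlap. Slc7a7, which exports arginine in exchange for neutral amino acids, was at 6.00 and 5.79 in WT N4 and 8.21 and 7.55 in WT non-pulsed arrays and differed by -1.99 (SE 0.30, adjusted p 0.00104). Slc7a2, an arginine carrier known from macrophages, was at 8.81 and 9.06 in WT N4 and 10.17 and 10.87 in WT non-pulsed arrays and differed by -1.58 (SE 0.32, adjusted p 0.0046). Slc43a2, a facilitated leucine carrier that works without Slc3a2, was at 8.18 and 7.91 in p50 cRel DKO N4, 7.96 and 7.51 in PKC theta KO N4, 8.19 and 8.29 in WT N4 and 10.55 and 10.47 in WT non-pulsed arrays. Its WT difference was -2.27 (SE 0.21, adjusted p 0.000106). Slc7a11, Slc7a2, Slc7a7, Slc7a8 and Slc43a2 all fell beside the B cell, dendritic cell, macrophage and neutrophil markers, and the share of those cells in these falls was not tested. Slc43a1, Slc43a3, Slc7a3, Slc7a4 and Slc7a10 did not pass (differences of -0.28 to 0.36).

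**Figure D3:**
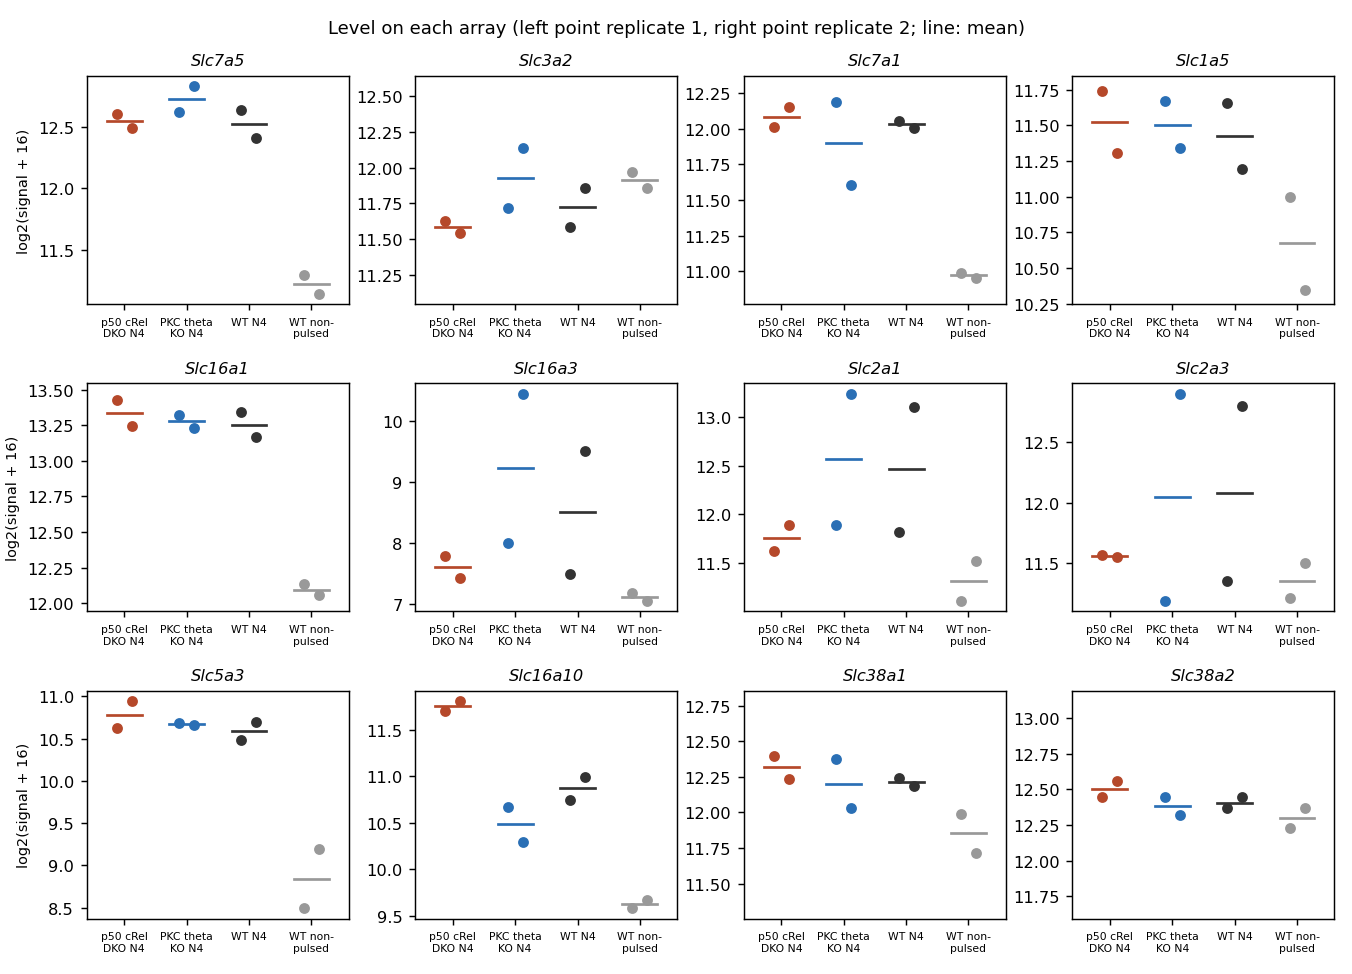
Levels, as log2(signal + 16), of 12 carriers in the 8 arrays, with the left point of each group for replicate 1, the right point for replicate 2 and the line for their mean. The y ranges differ between panels and do not start at 0. Slc7a5 and Slc16a1 sit higher in all 6 N4 arrays than in the WT non-pulsed arrays, Slc16a10 is highest in the p50 cRel DKO N4 arrays, and Slc2a1 and Slc2a3 are spread widely between the 2 arrays of PKC theta KO N4 and of WT N4.

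Of the glutamine, neutral and proton-coupled carriers (Slc1a, Slc38a and Slc36a), 13 of 20 genes were tested, and 2 rose, 4 fell and 7 did not pass. Slc1a5, the sodium-dependent glutamine carrier, was at 11.74 and 11.31 in p50 cRel DKO N4, 11.67 and 11.34 in PKC theta KO N4, 11.66 and 11.19 in WT N4 and 11.0004 and 10.35 in WT non-pulsed arrays. The WT groups did not overlap, but the second array minus the first was -0.46 in WT N4 and -0.65 in WT non-pulsed arrays. The WT difference was 0.75 (SE 0.26, adjusted p 0.0487), and it lost the test in 13 of 18 alternative settings. Without the first WT N4 array it was 0.52 (adjusted p 0.248), without the second WT non-pulsed array 0.43 (adjusted p 0.285), and without any 1 knockout array the adjusted p was 0.0539 to 0.0556. Slc1a4, a carrier of serine and alanine, was at 7.62 and 7.51 in p50 cRel DKO N4, 7.62 and 8.03 in PKC theta KO N4, 7.502 and 8.04 in WT N4 and 6.78 and 6.59 in WT non-pulsed arrays, and rose by 1.09 (SE 0.27, adjusted p 0.0121). It lost the test without the second WT N4 array (adjusted p 0.0790) or the second WT non-pulsed array (adjusted p 0.0633). The main glutamine carriers of the Slc38 family did not pass: Slc38a1 differed by 0.36 (SE 0.16, adjusted p 0.108) and Slc38a2 by 0.11 (SE 0.12, adjusted p 0.531). With the mean of all its probe sets Slc38a1 passed as higher (0.50, adjusted p 0.0310). Slc38a3, Slc38a10, Slc36a2 and Slc36a3 did not pass either (-0.76 to 0.31).

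Slc38a9 and Slc36a1, 2 lysosomal carriers, fell beside the markers of dendritic cells, macrophages, B cells and neutrophils, whose part in these falls was not tested. Slc38a9, the lysosomal arginine sensor of mTORC1, was at 7.47 and 8.08 in p50 cRel DKO N4, 7.44 and 7.72 in PKC theta KO N4, 7.41 and 7.75 in WT N4 and 8.83 and 9.11 in WT non-pulsed arrays. Its WT difference was -1.39 (SE 0.27, adjusted p 0.0037). Slc36a1, which exports amino acids from lysosomes with protons, was at 7.35 and 7.80 in p50 cRel DKO N4, 7.65 and 7.95 in PKC theta KO N4, 7.32 and 7.75 in WT N4 and 8.77 and 8.76 in WT non-pulsed arrays, and its WT difference was -1.23 (SE 0.25, adjusted p 0.00498). In both genes the 6 N4 arrays lay together below the 2 non-pulsed arrays. Slc38a7, another lysosomal carrier, known to export glutamine, was at 7.32 and 7.73 in WT N4 and 8.26 and 8.10 in WT non-pulsed arrays and did not pass (difference -0.65, adjusted p 0.0628), but passed as lower without the mean-variance trend in the fit. Slc38a6 fell by 2.02 (SE 0.23, adjusted p 0.000274), and Slc36a4, a carrier of proline and tryptophan, by 0.52 (SE 0.18, adjusted p 0.0469). The Slc36a4 call was lost in 12 of 18 alternative settings, among them leaving out any 1 array other than the second WT N4 array (-0.56 to -0.34, adjusted p 0.0533 to 0.278), and its difference was -0.12 with median centring.

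**Figure D4:**
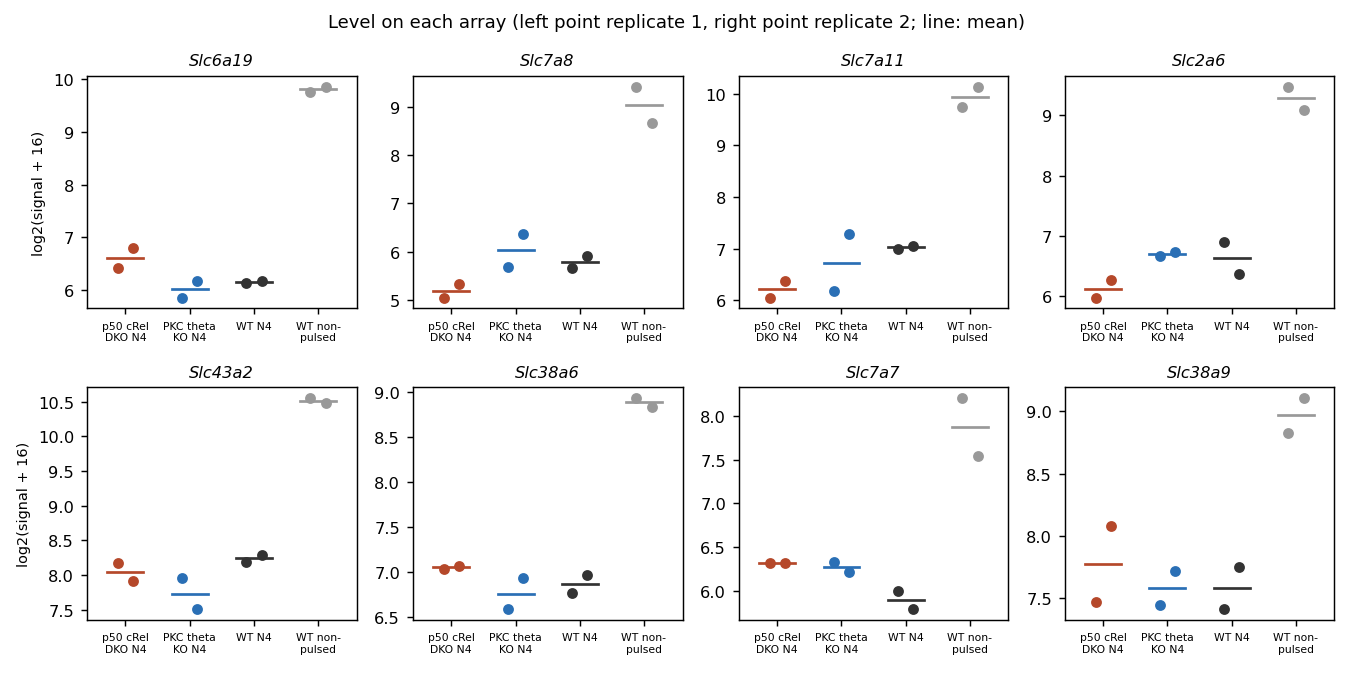
Levels, as log2(signal + 16), of 8 carriers that fell in WT N4, in the 8 arrays, with the left point of each group for replicate 1, the right point for replicate 2 and the line for their mean. The y ranges differ between panels and do not start at 0. In each panel all 6 N4 arrays lie below both WT non-pulsed arrays.

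The Slc6a family, which moves amino acids, creatine, taurine and neurotransmitters with sodium and chloride, had 8 of 20 genes tested, of which 0 rose and 3 fell. Slc6a19, a neutral amino acid carrier known from gut and kidney, was at 6.41 and 6.80 in p50 cRel DKO N4, 5.86 and 6.18 in PKC theta KO N4, 6.14 and 6.17 in WT N4 and 9.76 and 9.86 in WT non-pulsed arrays. It differed by -3.66 (SE 0.25, adjusted p 3.49e-05) in WT cells, 12.6-fold lower in N4 and the lowest difference among the 58 genes. Slc6a13, a carrier of GABA and taurine, was at 5.19 and 4.61 in WT N4 and 7.67 and 7.004 in WT non-pulsed arrays and differed by -2.44 (SE 0.44, adjusted p 0.00258). Its mean level was 4.83 in p50 cRel DKO N4, 4.99 in PKC theta KO N4 and 4.90 in WT N4 arrays, all under the filter's 5.38, against 7.34 in WT non-pulsed arrays, so it was tested only through the group in which it was high. Slc6a8, the creatine carrier, on the X chromosome, was at 6.70 and 6.53 in WT N4 and 8.05 and 9.22 in WT non-pulsed arrays and differed by -2.02 (SE 0.38, adjusted p 0.00337). The 2 non-pulsed arrays also differed at Xist, the X-inactivation transcript, with levels of 6.05 and 11.84. Slc6a6, the taurine carrier, was at 11.74 and 11.77 in WT N4 and 11.53 and 11.56 in WT non-pulsed arrays and did not pass (adjusted p 0.216). The noradrenaline carrier Slc6a2, with Slc6a17 and Slc6a21, differed by -0.65 to 0.02 without passing. Slc6a9, the glycine carrier, had a difference of 0.65 (adjusted p 0.0824) and did not pass as deposited, but passed as higher in N4 with quantile normalization and with median centring.

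Neither of the main glucose carriers passed the test, and their replicates lay far apart. Slc2a1, the main glucose carrier of activated T cells, was at 11.63 and 11.89 in p50 cRel DKO N4, 11.89 and 13.24 in PKC theta KO N4, 11.82 and 13.10 in WT N4 and 11.11 and 11.52 in WT non-pulsed arrays. The second arrays of PKC theta KO N4 and of WT N4 were high and the first lay close to the p50 cRel DKO arrays. The WT difference was 1.15 (SE 0.48, adjusted p 0.0886), with a 95% interval of 0.06 to 2.23 before adjustment, and it passed in 5 of 18 alternative settings. It was 1.79 without the first WT N4 array (adjusted p 0.0201) and 0.50 without the second (adjusted p 0.434). Slc2a3, the high-affinity glucose carrier, was at 11.57 and 11.55 in p50 cRel DKO N4, 11.18 and 12.90 in PKC theta KO N4, 11.35 and 12.80 in WT N4 and 11.21 and 11.49 in WT non-pulsed arrays. It showed the same high second arrays, and its WT difference of 0.72 (SE 0.56, adjusted p 0.345) became -0.00 without the second WT N4 array and 1.45 without the first. Of the 11 Slc2a genes, 8 were tested, 0 rose and 2 fell. Slc2a6, a lysosomal member, was at 5.97 and 6.27 in p50 cRel DKO N4, 6.66 and 6.74 in PKC theta KO N4, 6.90 and 6.37 in WT N4 and 9.48 and 9.10 in WT non-pulsed arrays and differed by -2.65 (SE 0.28, adjusted p 0.000181). Slc2a9, a urate carrier, was at 5.63 and 6.13 in p50 cRel DKO N4, 6.07 and 6.12 in PKC theta KO N4, 5.26 and 5.07 in WT N4 and 6.77 and 6.68 in WT non-pulsed arrays and differed by -1.56 (SE 0.31, adjusted p 0.0042) in WT cells. Its other probe set past the filter differed by -0.93 and did not pass (adjusted p 0.126). With median centring of the arrays Slc2a1 and Slc2a5 passed as higher in N4, and with quantile normalization Slc2a5 did.

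Among the sodium-coupled Slc5a carriers, 5 of 13 genes were tested, and 2 rose and 0 fell. Slc5a3, the myo-inositol carrier, was at 10.62 and 10.95 in p50 cRel DKO N4, 10.68 and 10.66 in PKC theta KO N4, 10.49 and 10.70 in WT N4 and 8.49 and 9.19 in WT non-pulsed arrays. All N4 arrays lay more than 1 above the non-pulsed arrays, with a WT difference of 1.75 (SE 0.23, adjusted p 0.00058), or 3.37-fold, the highest among the 58 genes. The call was lost when all probe sets of the gene were averaged (difference 1.05, adjusted p 0.0860). Slc5a6, which carries biotin and pantothenate, was at 8.56 and 7.96 in WT N4 and 7.38 and 7.36 in WT non-pulsed arrays and rose by 0.89 (SE 0.28, adjusted p 0.0333). It lost the test without the first WT N4 array (0.59, adjusted p 0.208), either WT non-pulsed array or either p50 cRel DKO array (adjusted p 0.0546 to 0.106). Slc5a2, Slc5a5 and Slc5a10, known as carriers of glucose, iodide and sugars, differed by -0.06 to 0.51 without passing, although Slc5a5 passed as higher in N4 with quantile normalization and with median centring.

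In the Slc16a family of monocarboxylate carriers, 8 of 13 genes were tested: 3 rose, 2 fell and 3 did not pass. Slc16a1, which moves lactate and pyruvate with protons, was at 13.43 and 13.24 in p50 cRel DKO N4, 13.32 and 13.23 in PKC theta KO N4, 13.34 and 13.16 in WT N4 and 12.14 and 12.06 in WT non-pulsed arrays. The 6 N4 arrays all lay more than 1 above both non-pulsed arrays, with a WT difference of 1.16 (SE 0.13, adjusted p 0.000202), 2.23-fold. Its chaperone Bsg (basigin) also rose, by 1.22. Slc16a3, the lactate exporter of glycolytic cells, was at 7.78 and 7.42 in p50 cRel DKO N4, 7.996 and 10.45 in PKC theta KO N4, 7.49 and 9.51 in WT N4 and 7.17 and 7.04 in WT non-pulsed arrays. Only the second arrays of PKC theta KO N4 and WT N4 were high, and the WT difference of 1.39 (SE 0.79, adjusted p 0.203) did not pass. It was 2.40 without the first WT N4 array and 0.38 without the second. Slc16a10, which carries the aromatic amino acids and thyroid hormone, was at 11.70 and 11.81 in p50 cRel DKO N4, 10.67 and 10.29 in PKC theta KO N4, 10.74 and 10.99 in WT N4 and 9.58 and 9.67 in WT non-pulsed arrays. It rose by 1.24 (SE 0.17, adjusted p 0.000671) in WT N4. Slc16a6, whose zebrafish counterpart exports ketone bodies, rose by 0.54 (SE 0.18, adjusted p 0.0426), and Slc16a5 and Slc16a11 fell by 1.72 (adjusted p 0.00752) and 1.29 (adjusted p 0.0214). Slc16a5 had mean levels of 4.94 in p50 cRel DKO N4, 5.38 in PKC theta KO N4 and 4.87 in WT N4 arrays, against 6.60 in WT non-pulsed arrays, so it too passed the filter through the non-pulsed group. Slc16a6 lost the test without any 1 of the 4 WT or the 2 p50 cRel DKO arrays (adjusted p 0.0613 to 0.193). Slc16a5 lost it without the first WT N4 or the first WT non-pulsed array (adjusted p 0.0509 and 0.0517), and Slc16a11 without the first WT N4 or the second WT non-pulsed array (adjusted p 0.0929 and 0.117). With quantile normalization and with median centring Slc16a11 lost the test as well. Slc16a4 and Slc16a13 differed by -0.04 and -0.13 and did not pass. Slc2a4rg-ps, taken in by its prefix, fell by 1.33 (adjusted p 0.00188).

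Loss of PKC theta changed no transporter past the test. Of the 58 genes, 0 passed between PKC theta KO N4 and WT N4 with limma, beside 0.0240% of all genes (3 genes), and 2 had an unadjusted p under 0.05 (3.45%, beside 2.96% of all genes). The differences ran between -0.72 and 0.93 with a median of 0.04 (all genes -0.02), and 51 of 58 were within 0.5 in size. Slc2a9 had the highest difference, 0.93 (SE 0.31, adjusted p 1.00), with both knockout arrays above both WT N4 arrays, but its other probe set, of nearly the same mean level (5.90 against 5.96), differed by -0.73. Slc43a2 differed by -0.51 (SE 0.21, adjusted p 1.00), with both knockout arrays below both WT N4 arrays, while its other probe set past the filter differed by 0.10. Slc7a5 differed by 0.20 with a 95% interval of -0.12 to 0.52, Slc16a1 by 0.03 (-0.26 to 0.31) and Slc7a1 by -0.13 (-0.56 to 0.29). For Slc2a1 the interval was wide, at -0.99 to 1.19. The other genes with the lowest unadjusted p were Slc36a2, Slc7a10 and Slc16a5 on the higher side (0.48 to 0.51) and Slc16a10, Slc2a5, Slc38a10 and Slc43a1 on the lower side (-0.72 to -0.25), none past the test.

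Loss of both p50 and c-Rel gave 0 of 58 genes past the test relative to WT N4, beside 0.519% of all genes (65 genes), with 3 genes at an unadjusted p under 0.05 (5.17%, beside 6.29% of all genes). The differences ran between -0.90 and 0.88, with a median of 0.02 (all genes -0.00), and 47 of 58 were within 0.5 in size. The gene nearest to the threshold was Slc16a10, with a difference of 0.88 (SE 0.17, adjusted p 0.0924) and no overlap of the arrays. With the replicate number as a block in the limma fit, Slc16a10 passed as higher (adjusted p 0.0359), beside 1.60% of all genes (200 genes). The count of 0 thus depends on leaving out that block. Slc2a9 differed by 0.72 (SE 0.31, adjusted p 0.775) and Slc7a6 by 0.32 (SE 0.14, adjusted p 0.798), each with both knockout arrays above both WT N4 arrays. The other probe set of Slc2a9 differed by -0.62 here. On the lower side, Slc7a2 differed by -0.80 (SE 0.32, adjusted p 0.683) and Slc7a11 by -0.81 (SE 0.36, adjusted p 0.804), in both cases without overlap. The remaining genes with the lowest unadjusted p were Slc36a2 (0.67) and Slc7a4 (0.40) on the higher side and Slc38a3 (-0.73), Slc2a6 (-0.51) and Slc7a8 (-0.61) on the lower side. Slc7a5 differed by 0.03 (95% interval -0.29 to 0.35), Slc16a1 by 0.09 (-0.20 to 0.37), Slc7a1 by 0.05 (-0.37 to 0.47) and Slc1a5 by 0.10 (-0.50 to 0.70). Slc2a1, Slc2a3 and Slc16a3 had wide intervals, of -1.79 to 0.38, -1.79 to 0.75 and -2.71 to 0.91. The B cell, dendritic cell and macrophage, and neutrophil markers had 0 genes past the test in either comparison with WT N4. Their median differences were 0.47, -0.32 and 0.45 in p50 cRel DKO N4, and 0.71, -0.10 and 0.30 in PKC theta KO N4. Of the CD8 T cell markers, Cd2 was lower in p50 cRel DKO N4 (difference -0.98, adjusted p 0.0206).

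Between the knockouts, 1 of 58 genes passed, beside 0.431% of all genes (0.240% higher in p50 cRel DKO N4). That gene was Slc16a10. It was at 11.70 and 11.81 in p50 cRel DKO N4 arrays and at 10.67 and 10.29 in PKC theta KO N4 arrays, a difference of 1.27 (SE 0.17, adjusted p 0.0258) with a 95% interval of 0.88 to 1.66. The call was lost when either p50 cRel DKO array (adjusted p 0.226 and 0.276) or the second PKC theta KO array (adjusted p 0.133) was left out. Its 3 other probe sets past the filter differed by 1.10, 0.75 and 0.27 in the same direction, none past the test. At an unadjusted p under 0.05 there were 5 genes (8.62%, beside 7.16% of all genes), and besides Slc16a10 the lowest adjusted p values were those of Slc7a6 (0.39, adjusted p 0.547), Slc43a1 (0.70, adjusted p 0.593) and Slc7a8 (-0.84, adjusted p 0.681). Slc16a3 had the lowest difference, -1.62, with an adjusted p of 0.770 and a 95% interval of -3.43 to 0.19.

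**Figure D5:**
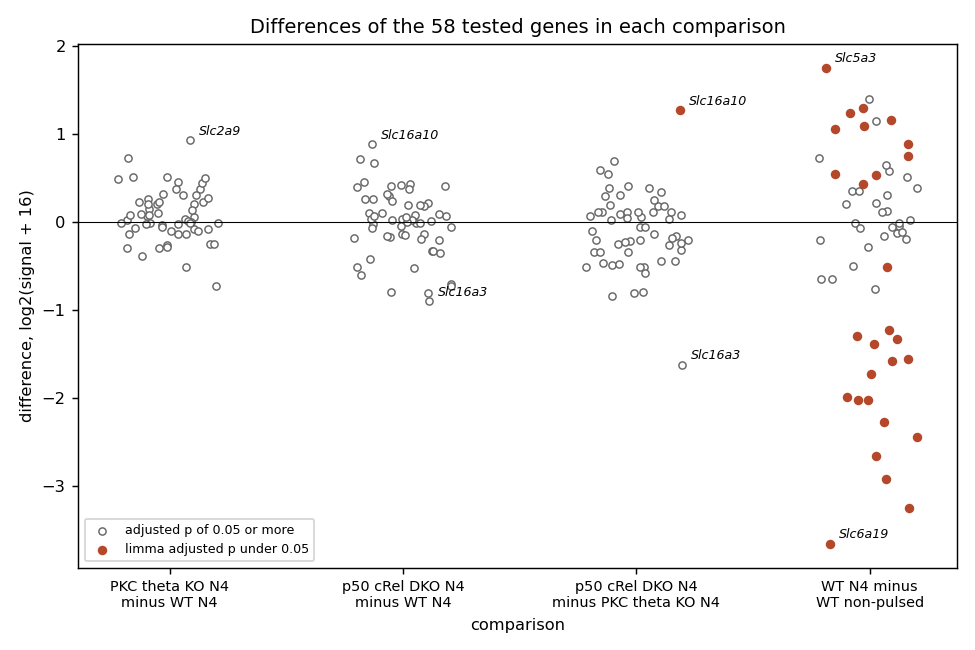
Differences in level (log2 scale) of the 58 tested genes in the 4 comparisons, 1 point per gene, with filled points for genes that passed the test and names for the genes furthest out. The 3 comparisons between genotypes lie between -1.62 and 1.27 and hold 1 gene that passed, Slc16a10, while the WT N4 minus WT non-pulsed differences reach -3.66 and hold 28.

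For the 28 genes that passed in WT cells, the knockout values stand beside the WT difference as a description. Among the 11 that rose, the median WT difference was 1.06 (0.44 to 1.75), the PKC theta KO N4 minus WT N4 differences had a median of 0.03 (-0.39 to 0.20) and the p50 cRel DKO N4 minus WT N4 differences one of 0.08 (-0.21 to 0.88). Among the 17 that fell, the medians were -1.99 (-3.66 to -0.52) in WT, 0.09 (-0.51 to 0.93) for PKC theta KO and 0.04 (-0.81 to 0.72) for p50 cRel DKO. These comparisons share the WT N4 arrays, and the 28 genes were chosen by those arrays and the WT non-pulsed ones. With no non-pulsed knockout cells, the knockouts' own response cannot be told apart from their starting level.

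The spread between replicates was itself uneven. In PKC theta KO N4 and in WT N4, 7 of the 58 genes each differed by 1 or more between the arrays of the group, against 1 in p50 cRel DKO N4 and 1 in WT non-pulsed arrays. The share of all genes at that limit was not counted. In size, the median difference of the 58 genes was 0.34 in PKC theta KO N4, 0.25 in WT N4, 0.18 in p50 cRel DKO N4 and 0.28 in WT non-pulsed arrays. Over all genes it was 0.26, 0.26, 0.22 and 0.24, so the counts are not particular to the transporters. The second array minus the first was 2.45 for Slc16a3 in PKC theta KO N4 and 2.02 in WT N4, but -0.37 in p50 cRel DKO N4 and -0.13 in WT non-pulsed arrays. These second arrays were thus high for the lactate exporter, and the glucose carriers Slc2a1 and Slc2a3 showed the same. For Slc2a3 it was 1.72 in PKC theta KO N4 and 1.45 in WT N4, but -0.02 in p50 cRel DKO N4 and 0.28 in WT non-pulsed arrays. For Slc2a1 it was 1.35 in PKC theta KO N4 and 1.29 in WT N4, but 0.26 in p50 cRel DKO N4 and 0.41 in WT non-pulsed arrays. Slc2a4 of the same family went the other way in WT N4, at -1.27, with 0.31 in PKC theta KO N4 and 1.43 in p50 cRel DKO N4. Slc6a21 (1.62), Slc7a3 (1.05) and Slc38a3 (1.04), which carry neither glucose nor lactate by their families, also differed by more than 1 in WT N4. Of 17 glycolysis genes, 8 differed by 0.5 or more in either direction between the arrays of PKC theta KO N4, 6 in WT N4, 1 in p50 cRel DKO N4 and 4 in WT non-pulsed arrays, beside 24.9%, 24.6%, 15.95% and 19.9% of all genes. The genes named next were chosen after their values were seen. Aldoc, an aldolase, differed by 1.31 in PKC theta KO N4 and 1.54 in WT N4, and Pfkl, a phosphofructokinase, by 1.10 and 0.72, against 0.06 and 0.08 in p50 cRel DKO N4. Pdk1, the kinase of pyruvate dehydrogenase, differed by 1.04 and 1.00 there but also by 0.74 in p50 cRel DKO N4 and 0.76 in WT non-pulsed arrays, and Hk2 (hexokinase 2) by -0.08 and 0.28. Other glycolysis genes differed little in WT N4, among them Ldha and Pgk1 (0.06 each). Genes outside glycolysis also had high second arrays. Trib3 differed by 1.69 in PKC theta KO N4 and 1.675 in WT N4, and Chac1 by 1.59 in each, against 0.09 each in p50 cRel DKO N4. Atf4 (0.14 and 0.20) and Psat1 (0.06 and -0.18) differed little in the same 2 groups. The 2 WT N4 arrays also differed in summed B cell marker signal, at 3084 in the first and 737 in the second, and in summed neutrophil marker signal, at 714 and 222. The difference in spread between the groups was not tested, nor was the part of these markers in it.

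The enzymes that use what these carriers bring in were also compared, and the counts below stand beside 17.2% of all genes higher and 23.5% lower. In WT N4 relative to WT non-pulsed arrays, of 17 tested genes of glycolysis, 10 rose and 2 fell (median 0.65): Hk2 rose by 1.59 and Tpi1, triose phosphate isomerase, by 1.35, whereas Txnip, which draws glucose carriers off the membrane, fell by 3.50 and Aldoc by 1.72. Of 15 tested genes of serine and one-carbon metabolism and of the Atf4 response, 9 rose and 1 fell (median 1.10), with Psat1, an enzyme of serine synthesis, at 1.64 and the mitochondrial folate enzyme Mthfd2 at 1.38. Ddit3, a stress factor of the same response, fell by 1.86, and Atf4 itself differed by 0.39 without passing. Of 7 tested genes of glutamine use, 5 rose (Got2, Odc1, Got1 and Glud1 among them) and Glul, glutamine synthetase, fell by 0.45. Of 16 carrier partners and amino acid sensors, 1 rose (Bsg) and 5 fell, including the leucine-sensing family member Sesn1 (-1.81) and Slc38a9, which is also one of the 58 genes. With median centring 1 rose and 2 fell, and the median of this list, -0.27, became 0.13. The other lists also moved with the scaling. With quantile normalization and with median centring alike, 11 glycolysis genes rose and 1 fell, and 10 genes of the serine, one-carbon and Atf4 list rose and 1 fell. Of the glutamine genes, 4 rose and 1 fell with quantile normalization. With median centring 4 rose and 0 fell, so the fall of Glul did not pass there. In the 3 comparisons between genotypes, 0 genes of these 4 lists passed. Hk2 lay at the threshold in p50 cRel DKO N4, with 11.78 and 11.67, against 12.44 and 12.73 in WT N4 (difference -0.86, adjusted p 0.05001).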

How the data were processed

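RNA of the 8 T cell samples was measured on 1-colour Affymetrix mouse arrays, after labelling from 100 ng of total RNA. The deposited values are linear intensities (MAS5 signals), 1 per probe set, and MAS5 and GCOS 1.4 are named in the submitters' processing notes. The number of arrays limits the precision. Of 45101 probe sets, 64 controls were left out. The platform annotation gave 34945 a single symbol, 932 several and 9160 none, and 34741 symbols were updated through the Entrez ID.

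Levels are log2(signal + 16). Probe sets with a mean at or above the 40th percentile were kept (27022), the highest-mean probe set stood for a gene, and limma 3.58.1 (R 4.3.3) was run on the 12520 genes, with 1 coefficient per group, a mean-dependent trend in eBayes, and 4 residual and 4.6 prior degrees of freedom. Adjusted p values are Benjamini-Hochberg over all genes, with a threshold of 0.05. Differences from log2(signal + 16) understate the change of dim genes. The fit was also run on simulated data with independent noise on each array. The real arrays differ there, since second-minus-first differences correlated between groups, so that run does not cover noise shared by arrays of the same number.

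The member genes, marker lists and pathway lists were chosen with earlier results of these data known. Named were all members past the test, 11 listed carriers of general interest, the 5 members with the lowest p in each direction where fewer than 5 passed, and up to 4 genes per pathway list. Other genes named beside them (Slc38a7, Slc6a9, Aldoc, Pfkl, Pdk1 and Hk2 among them) were chosen after their values were seen. Alternatives were the pseudocount, the filter, quantile normalization, median centring, no trend, a replicate block, the mean of a gene's probe sets, a fit of 2 groups only, and leaving out each array.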

Additional observations from a re-analysis of the deposited data

Results flagged for a closer look

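Slc16a10, the carrier of aromatic amino acids, was at 11.70 and 11.81 in p50 cRel DKO N4 arrays, against 10.67 and 10.29 in PKC theta KO N4 arrays. The difference between the knockouts, 1.27 (SE 0.17, limma adjusted p 0.0258), is the difference between their effects relative to the same WT N4 arrays, which were 0.88 for p50 cRel DKO and -0.39 for PKC theta KO. Over the alternatives it lay between 0.85 and 1.46, with adjusted p values of 0.00938 to 0.276.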

How the results depend on the processing

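The count of transporter genes past the test in WT N4 against WT non-pulsed arrays was 28. It was 27 with a pseudocount of 1, 30 with 64, 27 without the filter, 22 with a filter at the 60th percentile, 28 with quantile normalization (25 shared genes), 28 with median centring (24 shared), 25 without the trend, 26 with the mean of probe sets, 23 with only the 2 groups, and 20 to 28 when 1 array was left out. With the replicate number as a block it was 32 (Slc2a1, Slc38a1, Slc38a7 and Slc6a9 were added). Without the filter Slc16a7, Slc6a12 and Slc6a4, not tested otherwise, passed. The median of all genes was -0.10 as deposited, 0.09 with quantile normalization and 0.30 with median centring, and 42.3%, 52.6% and 61.1% of all calls were higher in N4 (39.3%, 46.4% and 46.4% of the transporter calls). Of the 28 genes, 14 passed in all 18 alternatives, 4 (Slc2a9, Slc6a13, Slc7a7 and Slc7a8) in all but the filter at the 60th percentile, which left them untested, 10 lost the test in some, and 0 reversed. The 10 were Slc1a5, Slc36a4, Slc16a6, Slc7a6, Slc5a6, Slc7a6os, Slc16a11, Slc1a4, Slc16a5 and Slc5a3. Among them, Slc16a11, Slc1a5 and Slc36a4 lost it with quantile normalization and with median centring, and Slc7a6 with median centring. The PKC theta KO N4 against WT N4 count stayed at 0 in all. For p50 cRel DKO N4 against WT N4 it was 0 except with the replicate block, which gave 1 (Slc16a10, adjusted p 0.0359). Between the knockouts it was 1, but 0 with median centring, without the trend, and with the mean of probe sets, and 0 to 1 when 1 array was left out, and the cause was not tested. Over all genes, the 65 calls of p50 cRel DKO N4 against WT N4 became 200 with the block, 35 to 81 in the other alternatives and 13 to 77 without 1 array. The 54 between the knockouts became 152, 17 to 98 and 0 to 65, and the 3 of PKC theta KO N4 against WT N4 became 4, 0 to 4 and 0 to 5. The 5101 of WT N4 against WT non-pulsed became 6401, 3703 to 5229 and 3546 to 5124. The titles mark 1 array of each group as replicate 2 and give no number 1. The second array had the higher median signal in every group. The medians were 48.0 against 37.8 in p50 cRel DKO N4 and 47.7 against 36.7 in PKC theta KO N4. In WT N4 they were 52.5 against 33.6, and in WT non-pulsed 70.3 against 52.6. Second-minus-first differences correlated across genes at 0.25 to 0.58 between groups. What arrays of the same number share is not stated in the titles. Dim probe sets limit what the 43 untested genes can show.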
